A study of Bos taurus with 6 samples.

Results

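PLTP and the genes of sterol efflux were followed in bovine myoblasts given resveratrol (RSV), a plant polyphenol. The genes looked for were PLTP, ABCA1, ABCG1, MYLIP, NR1H3 and APOE, 6 in all. Members were identified by pairing the Ensembl identifiers of the deposited table with the gene symbols of the study's supplementary sheet of differentially expressed mRNAs. Of the 6 genes, 2 had a symbol there, PLTP (ENSBTAG00000000559) and APOE (ENSBTAG00000010123), among 20459 mRNAs with reads. The other 4, ABCA1, ABCG1, MYLIP and NR1H3, were not analysed here, because the copy of the sheet used here was shortened and lists none of them. The cells were myoblasts in primary culture, the muscle precursors that fuse into fibers, taken from the longissimus dorsi of fetal beef cattle. The RSV group held 3 cultures kept in differentiation medium with 20 μM RSV for 4 days. The control group held 3 cultures that received the solvent DMSO alone and were likewise labelled day 4. The study describes 3 independent experiments for each group. The sources used here do not say which animal each culture came from, so the spread between libraries is the spread between cultures. The genes were chosen by their group means in this same comparison, with the difference between RSV and DMSO known, and a symbol existed only for mRNAs that the study had called. Values of PLTP and APOE are therefore given as a description without a test.

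Cells cannot break down the sterol ring, so surplus cholesterol is exported to lipoproteins. The liver X receptors (LXR), nuclear receptors encoded by NR1H3 and NR1H2 and activated by oxidized sterols, switch on genes of this route. ABCA1 and ABCG1 are membrane pumps that hand sterol and phospholipid to lipoprotein particles, APOE is an apolipoprotein that accepts lipid and binds receptors of the LDL receptor family, and PLTP moves phospholipids between particles and remodels high density lipoprotein. MYLIP encodes a ubiquitin ligase that marks the LDL receptor and its relatives for degradation. LXR also act on genes of fatty acid synthesis and desaturation. In muscle, cholesterol is a part of the plasma membrane and of caveolae, the small pits rich in sterol.

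The deposited table held a mean of normalized reads per group, and the whole reads of the single libraries were recovered from these means for 19881 of the 20459 mRNAs (97.2%). Recovered reads summed to between 9395658 and 11315696 per library. The libraries carry no sample number, so they are called RSV A, RSV B and RSV C and DMSO A, DMSO B and DMSO C in order of falling size factor, the number by which reads were divided to correct for depth. Normalized reads are reads after that division and are not corrected for gene length, so levels are compared between libraries and not between genes. A minimum mean of 10 normalized reads left 14452 mRNAs for limma voom, which fits log2 reads with a weight for the precision of each. It called 2419 mRNAs (16.7%) higher and 2427 (16.8%) lower in RSV at a Benjamini-Hochberg adjusted p under 0.05. These counts depend on the libraries used. Leaving out DMSO A, DMSO B or DMSO C gave 1178, 1260 and 1138 mRNAs higher and 1338, 1361 and 1251 lower. Without RSV A, RSV B or RSV C there were 1674, 2695 and 3144 higher and 1691, 2619 and 2896 lower. RSV C lay farther from the DMSO mean than RSV A and RSV B for 60.5% of the mRNAs tested, and values without it are given where they bear on a result.

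PLTP, the phospholipid transfer protein, was many times higher after RSV than in the control cultures. It had 3604, 3072 and 3534 normalized reads in RSV A, B and C, against 135, 128 and 111 in DMSO A, B and C. The lowest RSV library thus held many times the reads of the highest DMSO library, and the groups did not overlap. Behind these lay 3921, 3328 and 3725 recovered reads in RSV, against 130, 123 and 98 for the controls. The group means were 3403 ± 289 (SD, n = 3) and 125 ± 12.6 (SD, n = 3), a ratio of 27.3. The log2 fold change of the linear model was 4.76 with a standard error of 0.14. In reads per 1000000 recovered reads of the library, PLTP had 294 to 351 after RSV and 10.4 to 12.8 in the controls. That total leaves out the mRNAs whose reads could not be recovered. In bulk RNA, more cells that carry a transcript and more transcript per cell cannot be told apart.

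**Figure D1:**
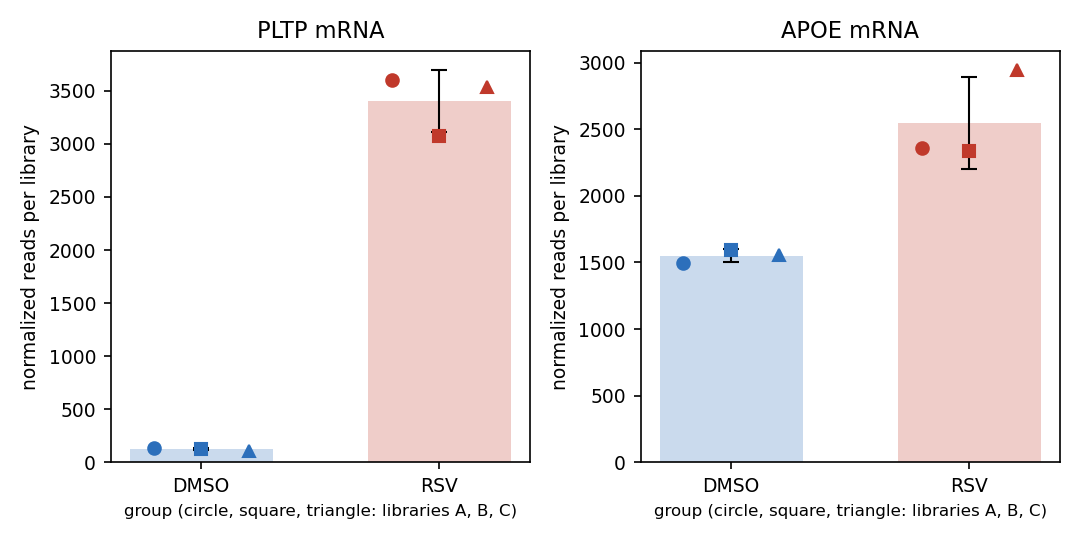
Normalized reads of PLTP (left) and APOE (right) in each library of the DMSO and RSV groups, on linear axes from 0. Bars are group means, error bars the SD of 3 libraries, and circles, squares and triangles the libraries A, B and C, with PLTP between 3072 and 3604 in RSV and APOE highest in RSV C at 2942.

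APOE was higher in every RSV library than in every DMSO library, by a far smaller factor than PLTP. Its normalized reads were 2359, 2336 and 2942 in RSV A, B and C and 1499, 1594 and 1559 in DMSO A, B and C. RSV C stood above the other RSV libraries, which lay close to each other, while the DMSO libraries spread little. The group means were 2545 ± 343 (SD, n = 3) in RSV and 1551 ± 48.0 (SD, n = 3) in DMSO, a ratio of 1.64. The log2 fold change was 0.71 with a standard error of 0.09, and it was 0.60 with a standard error of 0.05 when RSV C was left out. The same step moved PLTP only from 4.76 to 4.73.

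Few mRNAs had a larger log2 fold change than PLTP. By log2 fold change PLTP held rank 11 of the 14452 mRNAs tested. The 10 mRNAs above it had few control reads, with at most 20.1 normalized reads as a DMSO mean and at most 706 as an RSV mean, and 3 of them had no read in any DMSO library, so that their fitted fold changes depend on the prior count. Among the 14151 mRNAs with a DMSO mean of at least 10 normalized reads, a limit chosen after the values were seen, PLTP was second to the unannotated transcript Novel00046, whose log2 fold change was 5.14 with a standard error of 0.27. The transcript listed as GRO1 came next with 3.45 and a standard error of 0.71. APOE held rank 1244 of 14452, with a larger log2 fold change in 8.60% of the mRNAs tested.

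**Figure D2:**
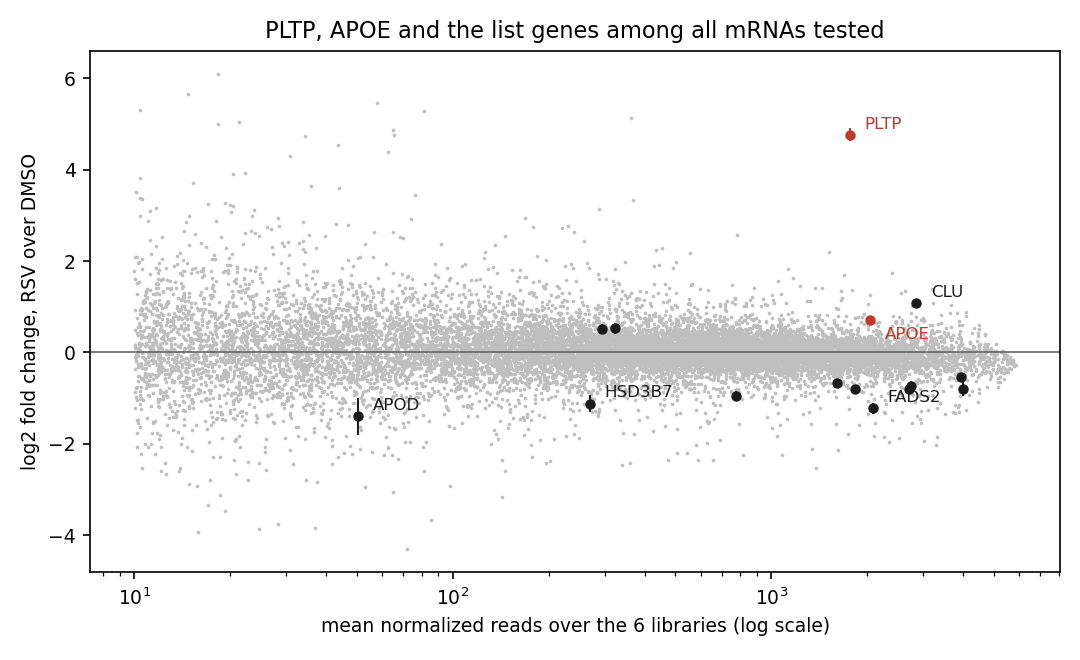
Log2 fold change of RSV over DMSO against the mean normalized reads over the 6 libraries on a log scale, for the 14452 mRNAs tested in grey, the genes of the pathway lists in black, and PLTP and APOE in red. Error bars are standard errors, the median of all mRNAs tested is 0.01, PLTP lies at 4.76 and APOE at 0.71.

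The spread within each group is given for both genes as a description. For PLTP the coefficient of variation was 8.50% in RSV and 10.1% in DMSO. Counting error alone would give 1.65% and 9.25%, so the DMSO libraries of PLTP varied about as much as counting error allows and the RSV libraries more. For APOE the coefficient of variation was 13.5% in RSV and 3.1% in DMSO, with 1.91% and 2.62% from counting error. The log2 SD of APOE in RSV was 0.19, larger than that of 85.3% of the 1472 mRNAs with an RSV mean within a factor of 1.5 of its own. PLTP had a log2 SD of 0.13 in RSV, larger than that of 67.3% of 940 such mRNAs. In DMSO the corresponding shares were 39.8% of 2294 mRNAs for APOE and 58.3% of 1727 for PLTP.

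To place both genes among their partners, 6 lists with 89 genes of lipid transfer, sterol handling and LXR were examined. Only 17 of the 89 had a symbol in the sheet, and 72 had none. Of the 17, the reads of LIMA1 and FASN could not be recovered, and neither was tested. PLTP and APOE carry no test here, and the 13 other genes all passed the threshold, 3 higher and 10 lower in RSV, where 33.5% of all mRNAs tested were called in either direction. Since the sheet lists only mRNAs that the study had called, this count is set by the naming and is no result about the lists. The same limit holds for the adjusted p of each list gene below. Each describes a gene already called in these libraries and adds no separate support. The median log2 fold change of the 13 was −0.79, a value of genes already called. It is therefore no like measure to the median of 0.01 over all mRNAs tested. Without RSV C the test again called 3 higher and 10 lower. In all 15 genes with recovered reads, both members included, the ranges of both groups were apart. That was so for 27.1% of the mRNAs tested with RSV higher and 25.8% with RSV lower. For the 15 it is bound up with their naming and choice, and is no result about the lists.

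Among the 21 lipid transfer and lipoprotein genes, PLTP, APOE and CLU were higher in RSV and APOD was lower, and the other 17 had no symbol. CLU, or clusterin, a secreted chaperone that also travels on high density lipoprotein, had 4145, 3650 and 3843 normalized reads in RSV A, B and C and 1763, 1970 and 1752 in DMSO A, B and C. All RSV libraries of CLU lay well above the controls, and RSV C lay between the other RSV libraries. Its log2 fold change was 1.09 with a standard error of 0.07 (limma voom, adjusted p = 9.5e-05). APOD, a small carrier of lipids of the lipocalin family, had 38.6, 40.6 and 11.4 normalized reads in RSV A, B and C and 79.9, 59.4 and 73.3 in DMSO A, B and C. The low value of RSV C rests on 12 reads. The log2 fold change of APOD was −1.40 with a standard error of 0.41 (limma voom, adjusted p = 0.033), and −0.82 without RSV C. The call was lost without DMSO A, DMSO B or DMSO C, with adjusted p of 0.11, 0.066 and 0.093 from limma voom.

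Of 15 ABC transporters of sterols and phospholipids, ABCA6 alone had a symbol. ABCA6, a member of the same subfamily as ABCA1, had 594, 551 and 455 normalized reads in RSV A, B and C against 1016, 1041 and 1005 in DMSO A, B and C. The control libraries were close together and above every RSV library, with a log2 fold change of −0.94 and a standard error of 0.09 (limma voom, adjusted p = 4.84e-04). Without RSV C the log2 fold change of ABCA6 was −0.84. Whether the pumps ABCA1 and ABCG1 moved in either direction was not analysed here.

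On the side of uptake, 2 of 11 genes had a symbol and both fell. VLDLR, a receptor that binds lipoproteins carrying APOE and is itself a substrate of MYLIP, had 2095, 2370 and 1755 normalized reads in RSV A, B and C and 3300, 3409 and 3561 in DMSO A, B and C. Its log2 fold change was −0.73 with a standard error of 0.10 (limma voom, adjusted p = 0.0017). LRPAP1, a chaperone of the LDL receptor family in the endoplasmic reticulum, had 2037, 2293 and 1623 normalized reads in RSV A, B and C and 3331, 3675 and 3327 in DMSO A, B and C. RSV C was the lowest library for both genes. The log2 fold change of LRPAP1 was −0.81 with a standard error of 0.11 (limma voom, adjusted p = 0.002). Without RSV C the log2 fold changes were −0.62 for VLDLR and −0.67 for LRPAP1. None of the 9 genes encoding LXR and its partners had a symbol.

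The genes for sterol movement, storage and oxidation went in both directions. Of 21 genes, 5 had a symbol and 4 were tested. NCEH1, a hydrolase that frees cholesterol from its stored esters, had 338, 322 and 379 normalized reads in RSV A, B and C against 253, 228 and 243 in DMSO A, B and C. GRAMD1B, a carrier that brings sterol from the plasma membrane to the endoplasmic reticulum, had 358, 348 and 444 in RSV A, B and C against 279, 265 and 244 in DMSO A, B and C. Both were thus higher in RSV by less than APOE, with log2 fold changes of 0.52 and 0.53 and standard errors of 0.10 and 0.12 for NCEH1 and GRAMD1B. Without RSV C the log2 fold changes were 0.45 for NCEH1 and 0.42 for GRAMD1B. The call of GRAMD1B (limma voom, adjusted p = 0.013) was lost without DMSO B or DMSO C, with adjusted p of 0.053 and 0.062 from limma voom.

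The other 2 tested genes of the same list were lower after RSV. CAV1, the coat protein of caveolae, had 3174, 3577 and 2149 normalized reads in RSV A, B and C and 5134, 5160 and 4878 in DMSO A, B and C. HSD3B7, an enzyme that oxidizes sterols on the way to bile acids, had 175, 221 and 121 in RSV A, B and C and 332, 384 and 384 in DMSO A, B and C. RSV C was again the library farthest from the controls for both. The log2 fold changes were −0.80 for CAV1 and −1.12 for HSD3B7, with standard errors of 0.16 and 0.19, and −0.59 and −0.89 without RSV C. Both passed limma voom, CAV1 with an adjusted p of 0.0078 and HSD3B7 with 0.0038, and so did NCEH1 with 0.0072.

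Of 12 further genes that LXR act on outside efflux, 5 had a symbol, and the 4 tested were all lower in RSV, opposite to PLTP and APOE. SCD, which makes monounsaturated fatty acids, had 1201, 1383 and 1436 normalized reads in RSV A, B and C and 2267, 2423 and 2268 in DMSO A, B and C. FADS2, a desaturase of polyunsaturated fatty acids, had 1238, 1527 and 1025 in RSV A, B and C and 2802, 2972 and 2962 in DMSO A, B and C, the largest decrease of the 4, with a log2 fold change of −1.22 and a standard error of 0.12 (limma voom, adjusted p = 4.97e-04). Without RSV C the log2 fold change of FADS2 was −1.08. Its partner desaturase FADS1 had 1238, 1251 and 1241 normalized reads in RSV A, B and C against 1864, 2046 and 1995 in DMSO A, B and C. The RSV values of FADS1 had a coefficient of variation of 0.53%, below the 2.74% from counting error, so their closeness is not read as a trait of the gene. ELOVL5, which lengthens polyunsaturated fatty acids, ranged from 3135 to 3240 normalized reads after RSV and from 4588 to 4742 in the controls. The log2 fold changes of SCD, FADS1 and ELOVL5 were −0.79, −0.66 and −0.55, with adjusted p of 3.96e-04, 2.48e-04 and 2.53e-04 from limma voom.

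**Figure D3:**
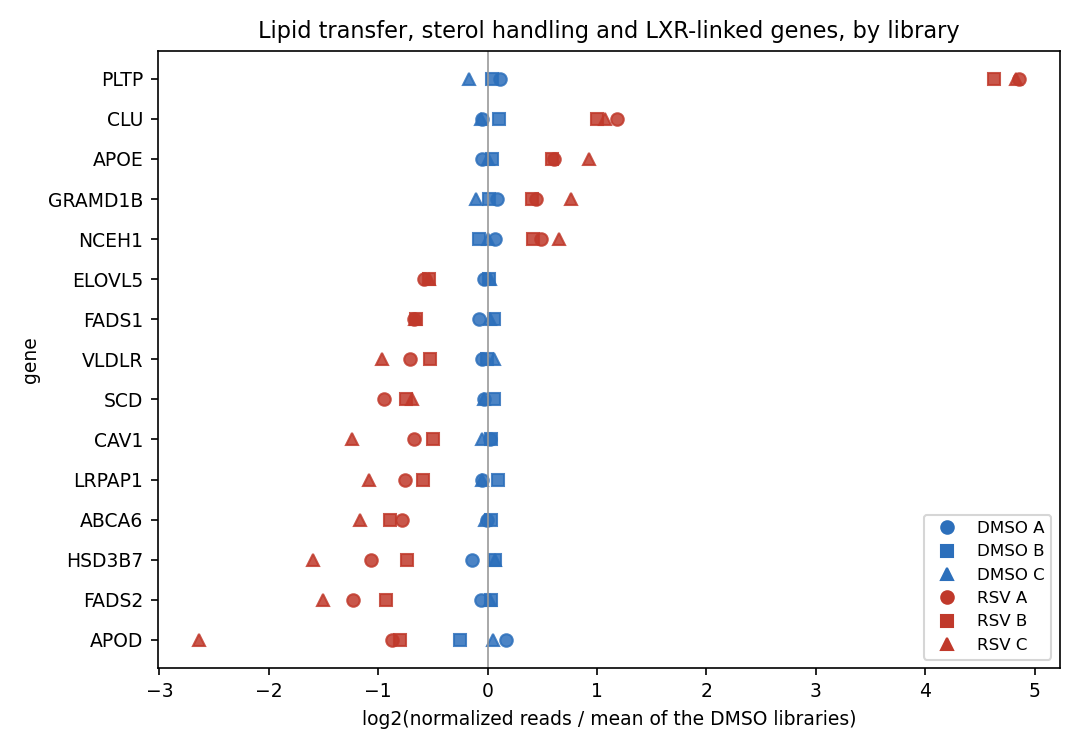
Log2 of the normalized reads of each library over the mean of the DMSO libraries, for the 15 list genes with recovered reads, with DMSO libraries in blue, RSV libraries in red, and circles, squares and triangles for libraries A, B and C. The 5 genes above 0 in RSV are PLTP, CLU, APOE, GRAMD1B and NCEH1, the other 10 lie below 0, and RSV C is the farthest RSV library for 10 of the 15.

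The place of RSV C in these genes was that of the whole data set. RSV C was the RSV library farthest from the DMSO mean for 10 of the 15 list genes (66.7%), APOE included, and for 69.6% of the 4846 mRNAs called in either direction. RSV A was the farthest for 5 of the 15, namely PLTP, CLU, SCD, FADS1 and ELOVL5. In the log2 ratio to the DMSO mean, PLTP reached 4.85, 4.62 and 4.83 in RSV A, B and C, and APOE 0.60, 0.59 and 0.92. RSV B was the lowest RSV library for both genes. APOE stood out in RSV C alone, while PLTP was close in RSV A and RSV C. The order of RSV A and RSV C for PLTP is not read as a difference, since counting error alone was 1.65%.

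The named genes most like each member were taken by the root mean square difference in that log2 ratio over the 6 libraries, among 1671 other named mRNAs. For PLTP the nearest were LTB4R2, a leukotriene receptor, with a difference of 0.38, PRRT1 with 0.39, PLCH2, a phospholipase C, with 0.40, PROKR2, a prokineticin receptor, with 0.63, and ALS2CL with 0.86. All of these rested on few control reads, at most 7.90 normalized reads in any DMSO library. LTB4R2, the nearest, had 109, 105 and 163 normalized reads in RSV A, B and C and 4.15, 5.21 and 2.26 in DMSO A, B and C. For APOE the nearest genes given here were closer, with SLC25A5, the mitochondrial carrier of ADP and ATP, at 0.025, TNK2, a tyrosine kinase, at 0.029, and MGAT2 and AHCY both at 0.041. SLC25A5 had 1843, 1816 and 2228 normalized reads in RSV A, B and C and 1179, 1240 and 1169 in DMSO A, B and C, so that it shared the high value of RSV C with APOE. Such likeness over 6 libraries in 2 groups mostly measures the size of the group difference.

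**Figure D4:**
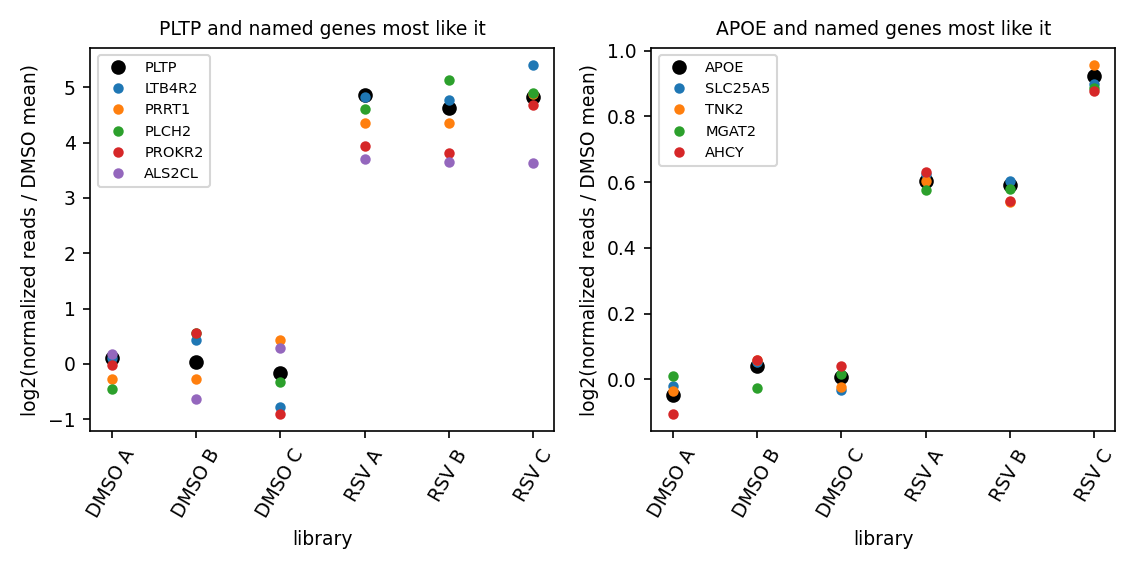
Log2 of the normalized reads over the DMSO mean in each of the 6 libraries for PLTP (left) and APOE (right), in black, and for named genes most like each, 5 for PLTP and 4 for APOE, in colour. Around PLTP the genes scatter widely, with root mean square differences from 0.38 to 0.86. Around APOE these differences are at most 0.041, and the genes share the rise in RSV C.

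Markers of the labelled cell type and of other cells could be read for few genes. Of 12 markers of myoblasts and early myotubes, MYMK and MYH3 had a symbol, and reads were recovered for MYMK, a membrane protein needed for myoblast fusion. MYMK had 1998, 1733 and 1630 normalized reads in RSV A, B and C and 1114, 1084 and 1084 in DMSO A, B and C, so the fusion marker was present in every library and higher after RSV (log2 fold change 0.70, standard error 0.08, limma voom, adjusted p = 8.74e-04). Macrophages were represented by 8 markers, of which CD14 alone had a symbol, so whether these cells were present cannot be read from the list. CD14 had 31.3, 27.7 and 46.5 normalized reads in RSV A, B and C and 10.4, 8.34 and 9.03 in DMSO A, B and C, or 34, 30 and 49 reads against 10, 8 and 8. It was higher in RSV with a log2 fold change of 1.83 and a standard error of 0.34 (limma voom, adjusted p = 0.0063), at a level of few reads. The part of CD14 in the PLTP and APOE values was not tested. MYMK and CD14 were also named only because the study had called them, so their adjusted p are a description. Of 5 fibroblast markers, PDGFRA, DCN, LUM and THY1 had a symbol, but their reads could not be recovered. That does not mean a low level, since the largest means could not be recovered. No adipocyte or endothelial marker had a symbol.

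The small RNA of the same study gave a view of miRNAs described as repressing efflux genes. Of 14 such miRNAs, 12 had a row in the table, with 14 mature forms. The reads of single libraries could be recovered for 2 of these, bta-miR-33a and bta-miR-20b. bta-miR-33a, which lies within a SREBF gene and represses ABCA1, had 6, 4 and 2 reads in RSV A, B and C and 12, 11 and 3 in DMSO A, B and C, here with libraries ordered by their miRNA size factors. After division by the size factors the values were 3.89, 3.09 and 2.14 with RSV against 13.0, 13.4 and 4.12 for the controls. The lowest DMSO library, at 4.12, lay close to the highest RSV library, at 3.89, and with a mean under 10 the miRNA was not tested. bta-miR-20b ranged from 22.7 to 26.7 normalized reads after RSV and from 13.0 to 30.2 in the controls, overlapping, and did not pass the test (limma voom, adjusted p = 0.72), where 5.34% of 206 miRNAs tested were called higher and 2.91% lower.

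The other 12 forms had means above 400 normalized reads, for which recovery was not tried, and only the authors' group means can be given. The log2 ratio of the authors' means lay between −0.35 and 0.11, with 8 forms lower and 4 higher in RSV, and it carries no error. bta-miR-26a, which targets ABCA1, had the largest decrease, with authors' means of 99711 in RSV and 127429 in DMSO. For the APOE repressor miR-199a, the authors' means were 321333 against 407149 normalized reads for bta-miR-199a-3p and 133246 against 162358 for bta-miR-199a-5p. bta-miR-27b and bta-miR-148a had log2 ratios of −0.22 and −0.22, and bta-miR-106b had 0.11.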

How the data were processed

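RNA of 3 RSV and 3 DMSO cultures was sequenced by the study. According to its methods, low-quality reads were removed by the authors, who compared the groups with DESeq. The submitters' processing notes name Bowtie 0.12.9 and bosTau8, which the methods tie to the miRNA reads. The mRNA aligner, annotation and counting were not given in the sources used here. The deposited table holds group means of read counts that the values show to be divided by a size factor per library, with most decimal points of mRNA means of 1 or more lost, and the authors' log2 fold changes and P-values, which were not used as results.

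Each mean was written as whole reads divided by 3 size factors, found from means that hold a single read. A mean, kept to 15 digits, was tried with up to 4 digits before the point and accepted where 1 combination existed and at most 0.01 were expected by chance. Reads that are all multiples of 10 leave the point open, so the digits of the authors' log2 ratio were compared with the decoded means, and 22 mRNAs that disagreed were dropped. This left 19881 mRNAs and 580 of 765 miRNAs. The 578 other mRNAs with reads were left out. The number of combinations expected by chance grows with the mean, so the largest means could not be accepted. Means of miRNAs up to 400 normalized reads were tried.

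Tests on the recovered reads used voom in limma (version 3.58.1, under R 4.3.3), with library sizes set by the size factors, a minimum mean of 10 normalized reads and Benjamini-Hochberg adjustment. DESeq, the study's tool, was not run here. Steps were tested on simulated data. Recovery and figures ran in Python 3.11.15 with numpy 2.4.6, pandas 2.3.3, numba 0.67.0 and matplotlib 3.10.9. With 3 libraries per group the precision rests on the spread between cultures.

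The sheet's symbols name 1863 of 20459 mRNAs, and the RefSeq gene table matched 0 identifiers. Named genes are PLTP, APOE, each list gene with a symbol, and the 5 genes most like each member, of which 1 is not reported here. Members and lists were chosen with earlier results of these data known. Alternatives were another scaling, no filter, limma-trend, the ratio of means, and each library left out. Sequences of the members were not used here.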

Additional observations from a re-analysis of the deposited data

How the results depend on the processing

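The log2 fold change of PLTP lay between 4.68 and 4.84 and that of APOE between 0.60 and 0.76 over the 6 fits that each omitted a library, and scaling by the trimmed mean of M-values (TMM), no filter, limma-trend and the ratio of group means moved either by less than the spread between libraries. The 25 other genes were those of the lists, the markers MYMK and CD14, and those most like a member. All were named because the study had called them, so a kept call was likely in advance. Under TMM, no filter and limma-trend, 75 of 75 of their values kept direction and call. Of 150 values with a library left out, 145 kept their call, 5 lost it (APOD and GRAMD1B, given above) and 0 changed sign. With a library left out, mRNAs called higher in RSV numbered between 1138 and 3144 and those called lower between 1251 and 2896. Leaving out DMSO A, DMSO B or DMSO C gave 1178, 1260 and 1138 higher and 1338, 1361 and 1251 lower, against 2419 and 2427 with all libraries. The cause was not tested. Without a filter, 13 miRNAs were called lower in RSV, against 6 with it. No paired analysis was possible because the deposited columns carry no replicate number, and the sheet's values per sample, which might number the libraries, were not used here. Depth limits APOD, CD14 and bta-miR-33a, which rest on few reads.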
